A study of Mus musculus with 6 samples.

Results

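The 37 genes described here encode the enzymes and regulators of cholesterol and fatty acid synthesis. They were listed by name and not by their values, and 34 of them were among the 10245 genes of the expression table. Hmgcs1, Idi1 and Hsd17b7, all of sterol synthesis, were not in it and are not analysed here. Of the 34 genes, 14 encode enzymes of sterol synthesis, 5 the SREBP proteins and their partners in the endoplasmic reticulum, 12 enzymes that make, elongate or desaturate fatty acids, and 3 enzymes of glycerolipid synthesis.

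Whole pancreas was sampled from 3 control mice (Ptf1a CreER/+) and 3 Ptf1a cKO mice (Ptf1a CreER/fl). All 6 received 3 daily doses of tamoxifen by gavage at 0.25 mg/g on consecutive days and were sacrificed on day 14, counted from the first dose. The CreER sequence sits in the Ptf1a locus and makes no PTF1A protein, so the control mice carried a single working copy of Ptf1a, the gene of a transcription factor that drives the digestive enzyme program of acinar cells, and recombination was aimed at Ptf1a-expressing acinar cells and not at the other cells of the organ. The control mice, 1 male and 2 females, were 4 months old and the Ptf1a cKO mice, also 1 male and 2 females, were 5 months old, so that age and genotype cannot be told apart. Ptf1a itself measured 566, 601 and 652 normalized counts in the control libraries and 19.8, 70.1 and 10.2 in the Ptf1a cKO libraries, a mean 18.2 times lower (log2 fold change -4.41 ± 0.49 (SE), adjusted p = 0.000329).

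Cells make cholesterol and fatty acids from acetyl-CoA. The precursors of the SREBP transcription factors, encoded by Srebf1 and Srebf2, are carried by SCAP from the endoplasmic reticulum to the Golgi apparatus, where they are cut and released to activate lipid synthesis genes, and the INSIG proteins hold SCAP back when sterols are plentiful. SREBP-2 is known mainly for sterol genes and SREBP-1c mainly for fatty acid genes, and Insig1 is itself an SREBP target. Acinar cells need membrane lipid for their large endoplasmic reticulum and secretory granules, while adipocytes in and around the pancreas make fatty acids for storage.

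The promoters of 5 genes past the threshold are shown first, 3 of genes that fell and 2 of genes that rose, chosen after their values were seen. Each is RefSeq's window from 250 bases before to 50 after the transcription start, in build GRCm38.p6, while the authors aligned to mm9, and genes were matched by symbol only. Capitals mark the CCAAT box (CCAAT), the E-box (CACGTG) and the GC box (GGGCGG) on either strand. Insig1 (chr5:28071162-28071461, plus strand), Sc5d (chr9:42264251-42264550, minus strand) and Acacb (chr5:114165268-114165567, plus strand) fell in Ptf1a cKO pancreas, and Acss2 (chr2:155517793-155518092, plus strand) and Mvd (chr8:122443373-122443672, minus strand) rose.
Insig1: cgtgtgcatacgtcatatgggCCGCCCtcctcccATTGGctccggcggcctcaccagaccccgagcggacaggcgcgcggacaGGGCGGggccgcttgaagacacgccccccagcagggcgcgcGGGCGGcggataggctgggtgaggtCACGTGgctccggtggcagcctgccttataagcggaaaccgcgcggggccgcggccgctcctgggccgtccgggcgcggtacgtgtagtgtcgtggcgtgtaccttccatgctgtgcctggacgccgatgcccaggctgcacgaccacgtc
Sc5d: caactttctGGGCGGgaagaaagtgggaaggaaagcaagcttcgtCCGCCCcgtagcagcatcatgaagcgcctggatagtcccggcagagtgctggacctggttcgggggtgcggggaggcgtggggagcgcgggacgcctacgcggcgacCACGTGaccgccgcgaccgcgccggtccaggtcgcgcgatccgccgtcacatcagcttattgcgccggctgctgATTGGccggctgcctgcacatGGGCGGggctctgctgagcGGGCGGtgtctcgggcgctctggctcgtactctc
Acacb: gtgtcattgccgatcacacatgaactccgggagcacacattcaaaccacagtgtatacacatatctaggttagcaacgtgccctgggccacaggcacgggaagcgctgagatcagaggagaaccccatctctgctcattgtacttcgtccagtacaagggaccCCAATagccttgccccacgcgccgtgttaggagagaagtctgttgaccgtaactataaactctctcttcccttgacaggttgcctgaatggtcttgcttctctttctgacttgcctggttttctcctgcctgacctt
Acss2: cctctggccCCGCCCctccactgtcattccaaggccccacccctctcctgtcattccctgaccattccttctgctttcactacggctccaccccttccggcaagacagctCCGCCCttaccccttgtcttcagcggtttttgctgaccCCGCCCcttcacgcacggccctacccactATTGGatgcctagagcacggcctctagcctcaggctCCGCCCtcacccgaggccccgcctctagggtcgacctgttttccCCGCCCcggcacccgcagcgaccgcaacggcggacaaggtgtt
Mvd: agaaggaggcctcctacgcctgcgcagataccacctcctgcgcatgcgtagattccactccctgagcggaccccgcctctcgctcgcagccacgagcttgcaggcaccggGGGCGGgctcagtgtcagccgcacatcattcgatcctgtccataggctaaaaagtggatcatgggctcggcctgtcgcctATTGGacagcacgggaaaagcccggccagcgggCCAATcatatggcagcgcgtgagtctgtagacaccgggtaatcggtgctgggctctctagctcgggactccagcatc

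RefSeq windows were found for 27 of the 34 genes, 37 windows in all, and were not found for Fdps, Fdft1, Sqle, Scd1, Scd2, Fads1 and Dgat2. The CCAAT box stood in the windows of 21 of the 27 genes (77.8%) against 41.1% of 27025 genes, and the GC box in 20 (74.1%) against 38.2%. The 27025 are all genes with a window and were not limited to those of the expression table. The contrast is therefore not one with expressed genes. The E-box stood in 5 (18.5%) against 8.09%. Among the 6 genes with a window that fell, 3 held the E-box, namely Insig1, Sc5d and Scap, and none of the 3 that rose did. The sterol regulatory element was searched as TCACNCCAC and was in 0 of the 27 genes, against 1.44% of all genes. No motif contains another, and these letters describe the windows and not binding.

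Differences between the groups were tested with limma on log2 values of the normalized read counts, and an adjusted p under 0.05 was called. Values for single libraries are normalized counts in the order of replicates 1, 2 and 3. At this threshold 12 of the 34 genes differed (35.3%), against 33.9% of all genes tested. Genes called higher in Ptf1a cKO mice numbered 4, where 17.1% of all genes were, and genes called lower numbered 8, where 16.8% were. The 3 values of each group did not overlap in 16 of the 34 genes, 4 of them higher and 12 lower, against 50.8% of all genes. Of all 10245 genes, 2716 were without overlap and higher, and 2489 without overlap and lower. Over the 34 genes the log2 fold changes had a median of -0.09, and over the whole table one of 0.04. The share of calls was near the background and so is no result about the genes as a set, and their values are given by role. The 12 genes were Sqle, Sc5d, Acat2 and Mvd of sterol synthesis, Srebf1, Scap and Insig1 of SREBP control, Acacb, Fads1, Acss2 and Scd2 of fatty acid synthesis, and Gpam of glycerolipid synthesis. The calls of Sqle, Sc5d, Srebf1, Scap, Insig1, Acacb and Fads1, all lower, held when each of the 6 libraries was left out in turn, and those of the other 5 did not.

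**Figure D1:**
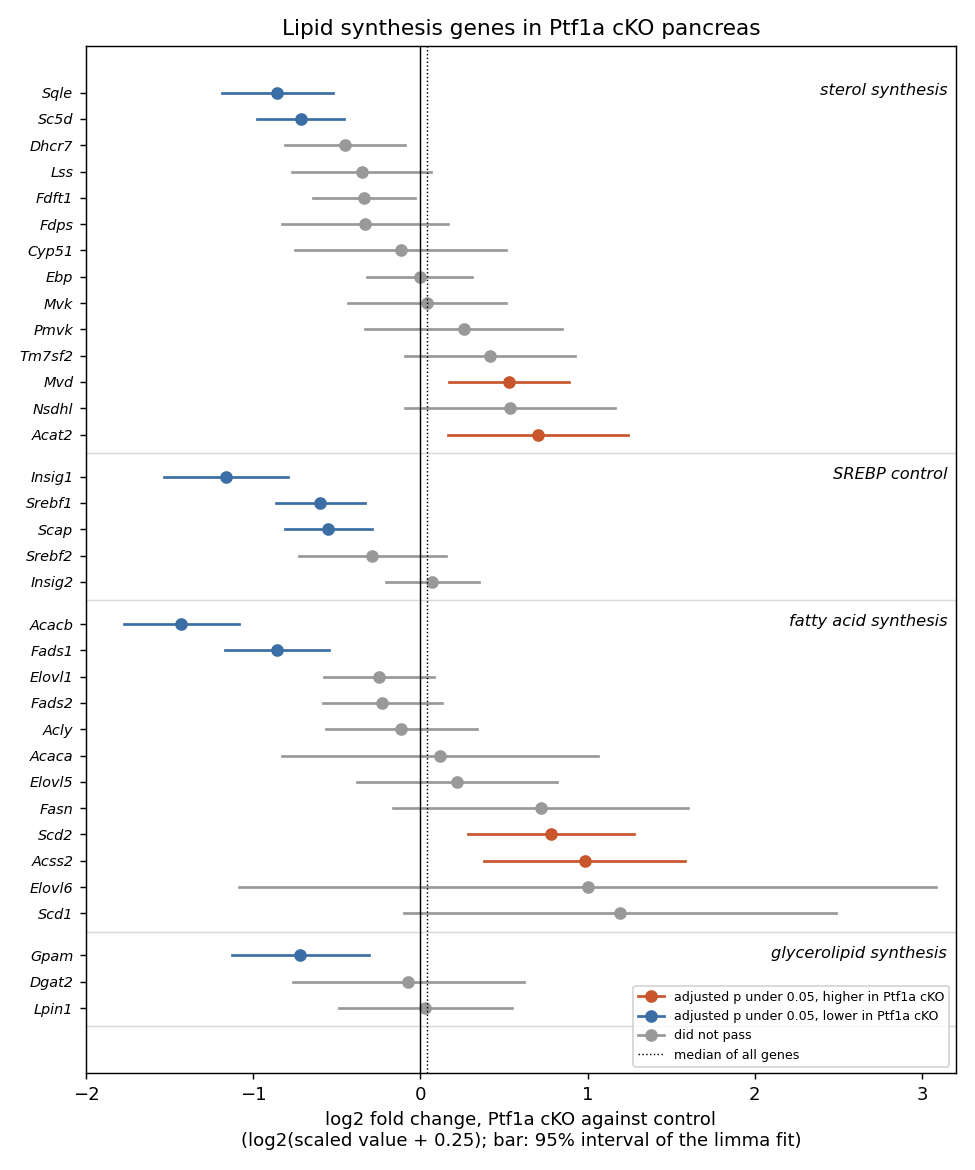
Log2 fold changes of the 34 lipid synthesis genes between Ptf1a cKO and control pancreas by role, with 95% intervals of the limma fit on the x axis. Points in orange (4 genes) and blue (8 genes) passed the threshold in the deposited scaling, and the dotted line is the median of all genes at 0.04. With libraries set to the same total, all 34 points would lie above 0 and the line at 1.49.

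These directions are relative to the authors' scaling. Totals over genes, of which acinar secretory genes made up most in the control libraries, were 17949889 to 21175836 in control libraries and 5527104 to 8981107 in Ptf1a cKO libraries. When the libraries were set to the same total, the median gene moved by 1.45 on the log2 scale and all 8 lower genes turned positive, from 0.05 for Acacb to 0.94 for Scap. Relative to the median gene, 32 of the 34 genes kept their side under that scaling, the exceptions being Acaca and Mvk, and 33 of 34 when the same total was set without acinar secretory genes, which moved the median gene by 0.41. Under the latter scaling none of the 8 lower genes turned positive. Whole pancreas was measured, so that fewer cells of a type and less RNA per cell cannot be told apart.

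Of the 5 genes of SREBP control, 3 were called (60.0%, against 33.9% of all genes), all of them lower. The median log2 fold change of the 5 was -0.55, which became 0.94 with libraries set to the same total and stood 0.55 below the median gene there. Insig1, the sterol-induced retention protein of SCAP, fell by the largest amount of the 5. It measured 619.8, 701 and 770.1 in the control libraries and 296, 255 and 388 in the Ptf1a cKO libraries. Every Ptf1a cKO value was below the lowest control value, and the mean was 2.23 times lower (log2 fold change -1.16 ± 0.16 (SE), adjusted p = 0.000988).

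Srebf1, which encodes SREBP-1, measured 828, 724 and 656 in the control libraries and 467, 493 and 489 in the Ptf1a cKO libraries (log2 fold change -0.60 ± 0.12 (SE), adjusted p = 0.00506). The groups stood apart, and the Ptf1a cKO values lay closer together than those of the control mice. Scap, the escort protein of both SREBPs, measured 597, 536 and 513 in the control libraries and 349, 408 and 363 in the Ptf1a cKO libraries (log2 fold change -0.55 ± 0.12 (SE), adjusted p = 0.00683). Here too the groups did not overlap. Srebf2, which encodes SREBP-2, had overlapping values of 269, 274 and 388 in the control libraries and 211, 228 and 323 in the Ptf1a cKO libraries (log2 fold change -0.29 ± 0.19 (SE), adjusted p = 0.276), and replicate 3 was the highest library of each group. Insig2, the paralog of Insig1, gave 165, 176 and 171 in the control libraries and 206, 173 and 162 in the Ptf1a cKO libraries (log2 fold change 0.07 ± 0.12 (SE), adjusted p = 0.684). The values of both groups were intermingled, and the interval of its log2 fold change ran from -0.21 to 0.35.

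**Figure D2:**
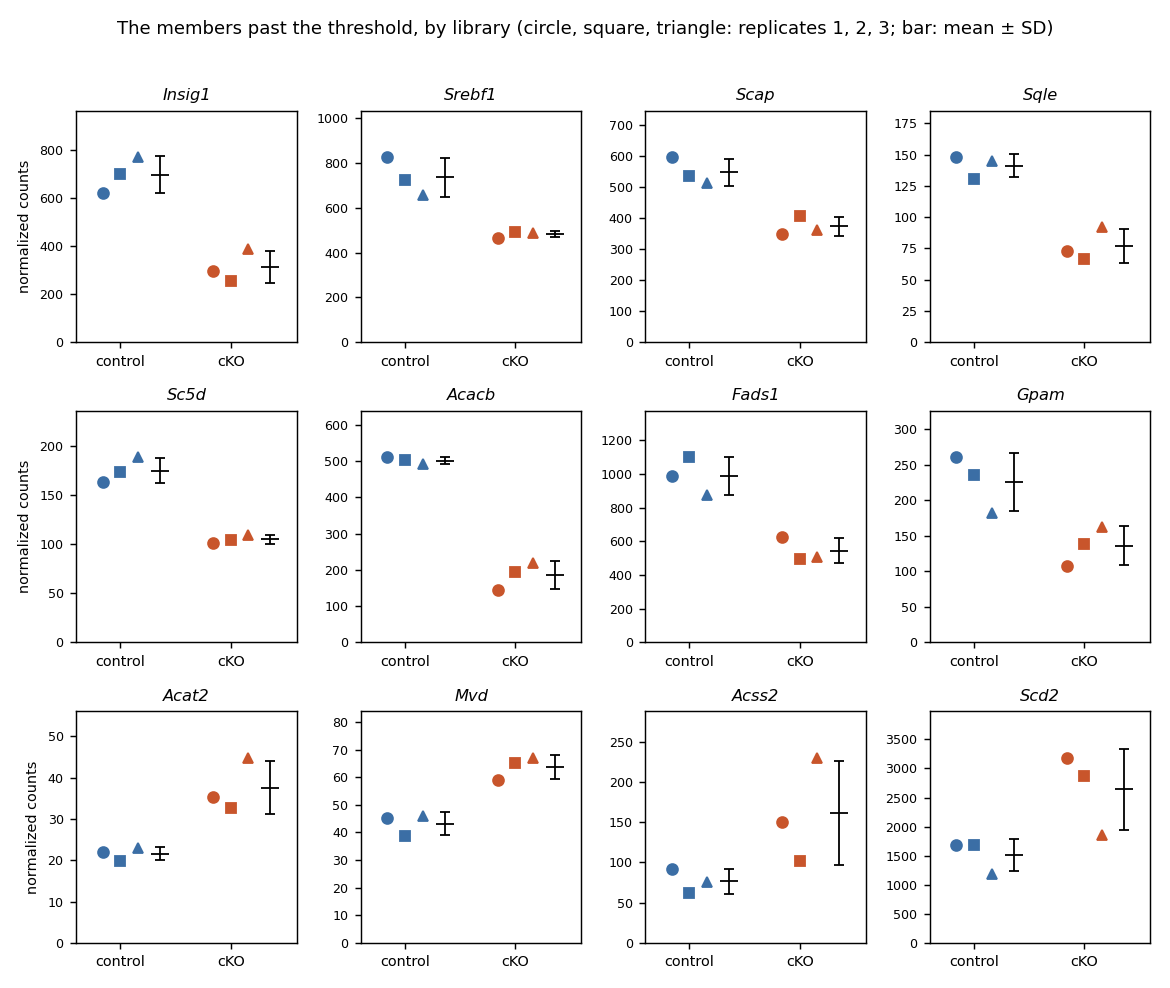
Normalized counts on linear axes from 0 for the 12 genes past the threshold, with 1 point per library and the mean ± SD (n = 3) beside each group. The top row and the next hold the 8 genes that were lower in the deposited scaling and positive with libraries set to the same total, the bottom row the 4 that were higher in both, and in none of the 12 panels do the groups overlap.

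Of the 14 measured enzymes of sterol synthesis 2 fell, 2 rose and 10 did not pass, with a median log2 fold change of -0.06, and with libraries set to the same total all 14 were called higher while 9 of them lay below the median gene. Sqle, squalene epoxidase, a rate-limiting step after the mevalonate part, measured 148, 131 and 145 in the control libraries and 72.9, 66.2 and 92.0 in the Ptf1a cKO libraries (log2 fold change -0.86 ± 0.15 (SE), adjusted p = 0.00257). The mean was 1.83 times lower and the groups stood apart. Sc5d, which places a double bond in the sterol ring late in the pathway, measured 163, 173 and 189 in the control libraries and 101, 104 and 110.0 in the Ptf1a cKO libraries (log2 fold change -0.72 ± 0.11 (SE), adjusted p = 0.00183). Its SDs were 12.7 in control and 4.45 in Ptf1a cKO mice, and the groups did not overlap.

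The 2 sterol genes called higher act in the mevalonate part and were less secure. Acat2, the thiolase that joins acetyl-CoA units, measured 22.0, 19.9 and 23.0 in the control libraries and 35.2, 32.6 and 44.8 in the Ptf1a cKO libraries (log2 fold change 0.70 ± 0.24 (SE), adjusted p = 0.0488). Mvd, mevalonate diphosphate decarboxylase, measured 45.1, 38.6 and 46.0 in the control libraries and 58.9, 65.3 and 67.0 in the Ptf1a cKO libraries (log2 fold change 0.53 ± 0.16 (SE), adjusted p = 0.0305). In both genes all Ptf1a cKO values exceeded all control values. The call of Acat2 was lost in 5 of the 6 fits with a library left out (adjusted p up to 0.138, without Ptf1a cKO replicate 3), and held only without Ptf1a cKO replicate 2 (0.0495). The call of Mvd was also lost in 5 (adjusted p up to 0.101, without control replicate 2), and held only without control replicate 3. Acat2 has a near-identical neighbour, Acat3, with which reads could be shared, so its value is uncertain.

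A further 4 sterol genes had lower values in every Ptf1a cKO library than in any control library but did not pass the threshold. Such lower values without overlap, called or not, were found in 2489 of all 10245 genes. Fdps, which makes farnesyl diphosphate, measured 43.8, 31.7 and 35.4 in the control libraries and 26.5, 28.5 and 30.2 in the Ptf1a cKO libraries (log2 fold change -0.33 ± 0.22 (SE), adjusted p = 0.269). Fdft1, squalene synthase, measured 157, 205 and 192 in the control libraries and 149, 153 and 131 in the Ptf1a cKO libraries (log2 fold change -0.34 ± 0.13 (SE), adjusted p = 0.0804), and passed when control replicate 1 was left out (adjusted p 0.0477). Lss, which closes the sterol rings, measured 71.9, 87.1 and 71.0 in the control libraries and 45.8, 63.7 and 70.5 in the Ptf1a cKO libraries (log2 fold change -0.35 ± 0.18 (SE), adjusted p = 0.168). The gap between the groups was narrow in all 4 genes and narrowest for Lss. Dhcr7, the last enzyme on the way to cholesterol, measured 107, 99.1 and 127 in the control libraries and 76.9, 95.3 and 68.8 in the Ptf1a cKO libraries (log2 fold change -0.45 ± 0.16 (SE), adjusted p = 0.0535), and it passed without Ptf1a cKO replicate 2 (adjusted p 0.0232). A share of the annotated exon length overlaps that of a neighbour for Fdps (26.7%, Gm43738) and Fdft1 (18.3%, Ctsb on the opposite strand), and whether the counting used strand is not given in the sources used here.

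The other 6 sterol genes had overlapping groups. Mvk, mevalonate kinase, gave 30.2, 31.4 and 32.1 in the control libraries and 32.5, 29.3 and 35.0 in the Ptf1a cKO libraries (log2 fold change 0.04 ± 0.21 (SE), adjusted p = 0.896). Pmvk, the next kinase, gave 33.4, 21.3 and 38.3 in the control libraries and 36.3, 31.4 and 43.6 in the Ptf1a cKO libraries (log2 fold change 0.26 ± 0.26 (SE), adjusted p = 0.471). Cyp51, the lanosterol demethylase, gave 54.5, 53.7 and 74.6 in the control libraries and 46.8, 39.8 and 89.5 in the Ptf1a cKO libraries (log2 fold change -0.12 ± 0.28 (SE), adjusted p = 0.769), where replicate 3 was the highest of all 6. Tm7sf2, a sterol reductase that shares 12.1% of its exon length with Vps51, had a log2 fold change of 0.41 ± 0.23 (SE), and Nsdhl, of the step that removes methyl groups, one of 0.54 ± 0.28 (SE), with adjusted p-values of 0.181 and 0.164. Ebp, the sterol isomerase, had the same mean in both groups to 3 digits (108 ± 9.45 in control and 108 ± 14.0 in Ptf1a cKO mice, SD, n = 3).

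The 12 fatty acid genes held both the strongest fall and the widest spread of all members. Of them 2 fell, 2 rose and 8 did not pass, with a median log2 fold change of 0.17, and with libraries set to the same total 11 were called higher and none lower. Acacb, the acetyl-CoA carboxylase of the mitochondrial surface, whose malonyl-CoA restrains fatty acid entry into mitochondria, measured 511, 503 and 492 in the control libraries and 145, 195 and 219 in the Ptf1a cKO libraries. The highest control value was 1.04 times the lowest, the groups stood far apart, and the mean was 2.69 times lower (log2 fold change -1.43 ± 0.15 (SE), adjusted p = 0.000272). Acaca, the cytosolic carboxylase that feeds fatty acid synthase, gave 21.0, 21.1 and 38.0 in the control libraries and 17.3, 22.2 and 55.9 in the Ptf1a cKO libraries (log2 fold change 0.11 ± 0.42 (SE), adjusted p = 0.853). The highest values of either group, 38.0 and 55.9, both came from replicate 3, and without Ptf1a cKO replicate 3 its log2 fold change was -0.34.

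Desaturases moved both ways relative to the median gene under each scaling tried, though with libraries set to the same total both Fads1 and Scd2 were called higher. Fads1, the delta-5 desaturase of polyunsaturated fatty acids, measured 988, 1097 and 877 in the control libraries and 628, 497 and 506 in the Ptf1a cKO libraries (log2 fold change -0.86 ± 0.14 (SE), adjusted p = 0.00183), with no overlap between the groups. Fads2, the delta-6 desaturase, measured 162, 135 and 113 in the control libraries and 128, 116 and 102 in the Ptf1a cKO libraries (log2 fold change -0.23 ± 0.16 (SE), adjusted p = 0.288), with overlap. Scd2, a stearoyl-CoA desaturase, measured 1675, 1678 and 1189.8 in the control libraries and 3185, 2874 and 1859.8 in the Ptf1a cKO libraries (log2 fold change 0.78 ± 0.22 (SE), adjusted p = 0.0239). All Ptf1a cKO values were above the control values, yet the call was lost without Ptf1a cKO replicate 1 (adjusted p 0.0795), without control replicate 1 (0.0511) and without control replicate 3 (0.0813). Scd1, its paralog, measured 837, 428 and 1234 in the control libraries and 1320.3, 867 and 4661 in the Ptf1a cKO libraries. Its mean was 2.74 times higher, but a single library, Ptf1a cKO replicate 3, stood far above the rest, and the difference did not pass (log2 fold change 1.19 ± 0.57 (SE), adjusted p = 0.135).

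Acss2, which makes cytosolic acetyl-CoA from acetate, measured 92.3, 62.1 and 75.2 in the control libraries and 151, 102 and 230.3 in the Ptf1a cKO libraries (log2 fold change 0.98 ± 0.27 (SE), adjusted p = 0.0206). The groups did not overlap, with replicate 3 the highest of the Ptf1a cKO libraries. The call was lost without Ptf1a cKO replicate 1 (adjusted p 0.0517), Ptf1a cKO replicate 3 (0.0528), control replicate 2 (0.0751) or control replicate 3 (0.0587). Acly, which makes the same product from citrate, measured 1033, 1079 and 976 in the control libraries and 877, 729 and 1339.5 in the Ptf1a cKO libraries (log2 fold change -0.11 ± 0.20 (SE), adjusted p = 0.69). These values enclosed the control range.

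Fasn, fatty acid synthase, measured 787, 648 and 1021 in the control libraries and 1009, 832 and 2774 in the Ptf1a cKO libraries (log2 fold change 0.72 ± 0.39 (SE), adjusted p = 0.182). Elovl6, which elongates its product, measured 10.5, 7.22 and 22.0 in the control libraries and 23.9, 3.90 and 147 in the Ptf1a cKO libraries (log2 fold change 1.00 ± 0.92 (SE), adjusted p = 0.427). In both, Ptf1a cKO replicate 3 was the highest library and control replicate 3 the highest control, and for Elovl6 the highest Ptf1a cKO value was 37.6 times the lowest. The elongases of polyunsaturated and very long chains had log2 fold changes closer to 0. Elovl5 gave 295, 294 and 373 in the control libraries and 576, 244 and 364 in the Ptf1a cKO libraries (log2 fold change 0.22 ± 0.27 (SE), adjusted p = 0.554), with the highest value in replicate 1. Elovl1 gave 233, 204 and 214 in the control libraries and 157, 223 and 171 in the Ptf1a cKO libraries (log2 fold change -0.25 ± 0.15 (SE), adjusted p = 0.21), with overlap, and passed only without Ptf1a cKO replicate 2 (adjusted p 0.0445).

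Scd1, Fasn, Elovl6, Acaca and Acss2 were highest in Ptf1a cKO replicate 3, and so were the adipocyte markers Adipoq, Plin1, Fabp4 and Cfd. Without that library the log2 fold change was 0.49 for Scd1, 0.19 for Fasn and -0.14 for Elovl6, and without Ptf1a cKO replicate 2 it was 1.70 (adjusted p 0.0289), 1.05 (0.0438) and 2.04 (0.0355). Adipoq, the adipocyte hormone adiponectin, measured 13.0, 1.74 and 65.0 in the control libraries and 9.66, 40.0 and 122 in the Ptf1a cKO libraries. Plin1, the coat protein of the adipocyte lipid droplet, measured 8.15, 1.49 and 24.7 in the control libraries and 2.54, 20.9 and 72.9 in the Ptf1a cKO libraries. Of 9 adipocyte markers in the table, 1 was called (11.1%, against 33.9% of all genes), namely Cfd. Among the 9 was Lipe, which also stood in the list of lipid droplet genes. Their sum was 1831 to 2393 in control and 2508 to 4116 in Ptf1a cKO libraries. Its largest part was Lpl, at 1770, 1590 and 1570 in the control libraries and 2339, 1659 and 2008 in the Ptf1a cKO libraries. The groups overlapped in Lpl, Adipoq and Plin1. Retn, Lep, Cidea, Pparg and Adrb3 were not in the table. Adipoq (1.74), Plin1 (1.49) and Cfd (6.28) were near 0 in control replicate 2, but Fabp4 was not (158). That library also had the lowest control values of Scd1, Fasn and Elovl6. Ptf1a cKO replicate 2, however, had more Adipoq and Plin1 than replicate 1 but less Scd1, Fasn and Elovl6. The order of Scd1, Fasn and Elovl6 among the Ptf1a cKO libraries was shared by the summed endocrine, leukocyte, ductal, endothelial and adipocyte markers. The acinar secretory sum had the reverse order. The 9 endocrine markers summed to 27737, 5923 and 33931 normalized counts in the Ptf1a cKO libraries. In control libraries they summed to 12288, 11651 and 43259, and none was called. Leukocyte markers summed to 1549, 1167 and 2445 in the Ptf1a cKO libraries. The part of any of these cell types in the values of Scd1, Fasn and Elovl6 was not tested.

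**Figure D3:**
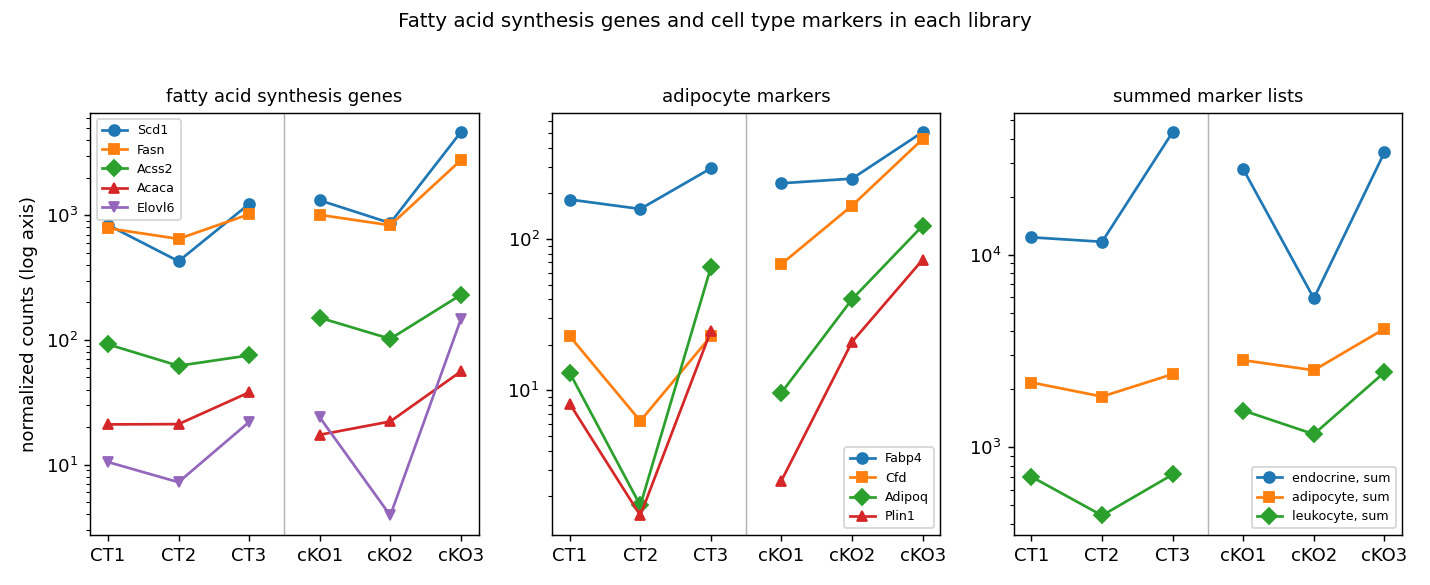
Normalized counts per library on log axes for 5 fatty acid synthesis genes, 4 adipocyte markers and 3 summed marker lists, with lines joining the libraries of a group. Scd1, Fasn, Acss2, Acaca and Elovl6 are all highest in Ptf1a cKO replicate 3 (4661 for Scd1), the library that also has the highest Adipoq (122).

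Of the 3 glycerolipid genes, Gpam was lower and the other 2 did not pass. Gpam, the mitochondrial enzyme that begins glycerolipid synthesis, measured 260.2, 235 and 182 in the control libraries and 108, 138 and 162 in the Ptf1a cKO libraries (log2 fold change -0.72 ± 0.18 (SE), adjusted p = 0.0151). The groups did not overlap, but the call was lost without control replicate 1 (adjusted p 0.0625) or control replicate 2 (0.0552). Lpin1, a phosphatidate phosphatase, gave 105, 93.4 and 141 in the control libraries and 82.3, 118 and 153 in the Ptf1a cKO libraries (log2 fold change 0.03 ± 0.23 (SE), adjusted p = 0.933). Dgat2, which completes triglycerides, gave 234, 159.8 and 147 in the control libraries and 207, 97.5 and 234 in the Ptf1a cKO libraries (log2 fold change -0.07 ± 0.31 (SE), adjusted p = 0.874). Both had overlapping groups.

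Setting sterol genes against fatty acid genes gave no clear separation. The mean log2 level of the 14 sterol genes less that of the 12 fatty acid genes was -2.12, -1.95 and -2.16 in control libraries and -2.30, -1.94 and -2.67 in the Ptf1a cKO libraries. In such a difference the scaling of a library cancels except through the pseudocount. The groups overlapped, and their means of -2.08 ± 0.11 and -2.30 ± 0.37 (SD, n = 3) differed by -0.23, and by -0.26 with libraries set to the same total. Without Ptf1a cKO replicate 3 the difference was -0.04, and without replicate 3 of both groups, a setting chosen after the data were seen, it was -0.09. No test was made over the members. Without replicate 3 of both groups, 1 of the 34 genes was called higher and 8 lower.

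Pairs of paralogs were set against each other in the same way. The log2 ratios of 5 pairs were computed within libraries after their values had been seen. Insig1 over Insig2 was 1.89, 1.98 and 2.15 in control libraries and 0.51, 0.55 and 1.24 in Ptf1a cKO libraries, a difference of -1.24 on the log2 scale. Acacb over Acaca was 4.40, 4.37 and 3.58 against 2.84, 2.96 and 1.91, a difference of -1.55, and of -1.40 with libraries set to the same total. Fads1 over Fads2 was 2.59, 2.99 and 2.92 against 2.26, 2.06 and 2.28, a difference of -0.63. For these 3 pairs the groups did not overlap, and the exact two-sided permutation test gave p = 0.1 each, the smallest that 3 against 3 libraries allow (0.167 adjusted over the 5 ratios). Srebf1 over Srebf2 (difference -0.31, exact p = 0.4, adjusted 0.5) and Scd1 over Scd2 (difference 0.41, exact p = 0.8, adjusted 0.8) overlapped between the groups. The sign of the Scd1 over Scd2 difference turned without Ptf1a cKO replicate 3 (-0.53) and without control replicate 2 (-0.08).

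**Figure D4:**
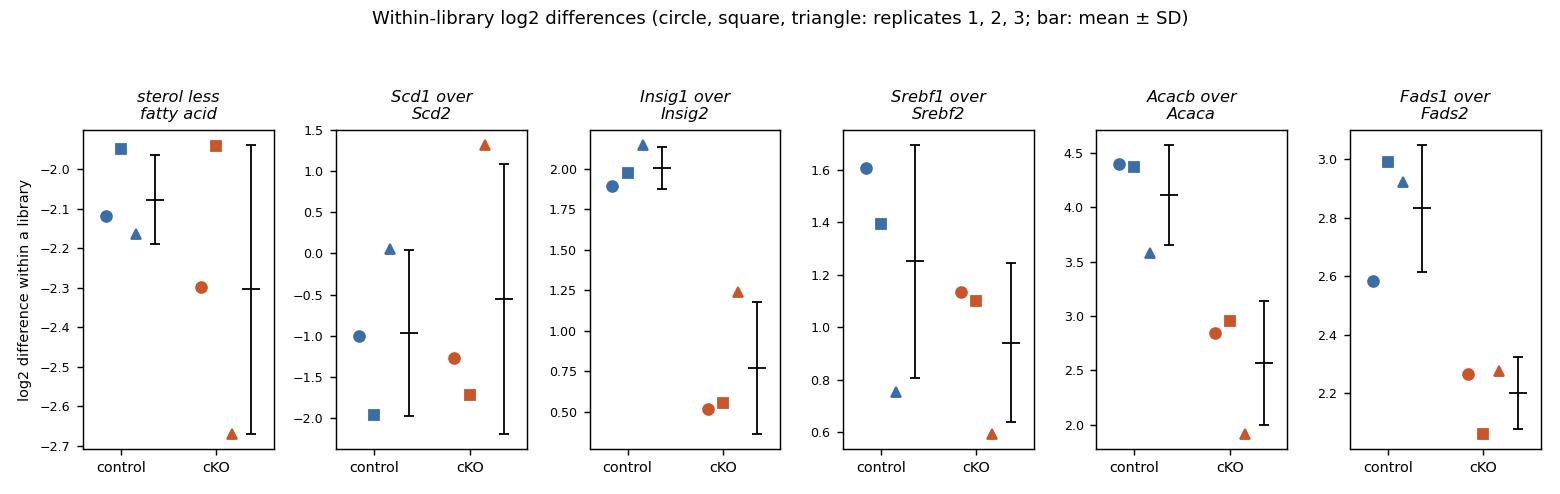
Log2 differences taken within each library in the deposited scaling for the sterol against the fatty acid genes and for 5 pairs of paralogs, with 1 point per library and the mean ± SD (n = 3). Axes differ between panels and do not start at 0. The groups are apart for Insig1 over Insig2, Acacb over Acaca and Fads1 over Fads2.

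Levels between genes were compared per kilobase of annotated exon. In control pancreas the most abundant members were Scd2 (277 normalized counts per kilobase), Insig1 (225), Fads1 (205), Acly (195) and Scd1 (170), followed by Srebf1 (131). The sterol genes ranged from 7.11 for Lss to 46.8 for Ebp, and Acaca was the lowest member at 1.56. Before division by length, Lss had a control mean of 76.7 normalized counts (10787 bases), above that of Acat2 at 21.6 (2544 bases). In Ptf1a cKO pancreas Scd2 (483) and Scd1 (467) led, while Insig1 stood at 101 and Fads1 at 113. Acacb stood at 52.1 in control and 19.4 in Ptf1a cKO mice, and Acaca at 1.86 in the latter. Without Ptf1a cKO replicate 3, an alternative chosen after the data were seen, the level in Ptf1a cKO mice was 224 for Scd1, 84.1 instead of 140.5 for Fasn, 2.17 instead of 9.04 for Elovl6 and 1.16 for Acaca, the last then below its control level.

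Lists of further lipid genes, none of them members, were counted in the same fit, and with libraries set to the same total no gene of these lists was called lower. Of 13 further genes of sterol handling, 4 passed (30.8%, against 33.9% of all genes), all higher. Soat1, which esterifies cholesterol for storage, measured 33.8, 47.5 and 41.1 in the control libraries and 404, 678 and 463 in the Ptf1a cKO libraries (log2 fold change 3.53 ± 0.20 (SE), adjusted p = 1.68e-05). It stood far above control in every Ptf1a cKO library. Npc1 and Npc2, which move cholesterol out of lysosomes, had log2 fold changes of 0.66 and 0.59 (adjusted p 0.00715 and 0.0340), and Pgrmc1, a membrane heme protein, one of 0.46 (0.0168). The call of Npc1 held in all 6 fits with a library left out, that of Pgrmc1 in 4 and that of Npc2 in 2. For Npc2 the groups overlapped. Of 8 genes of the sterol sensor LXR and of cholesterol export, 4 passed (50.0%), all higher. Among the 4 were Pltp, the phospholipid transfer protein (1.21, adjusted p 0.00504), and Lpcat3, which remodels phospholipids (0.67, 0.0144). Of these 4 calls only that of Pltp held in all 6 fits with a library left out.

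Of 19 further genes of fatty acid synthesis and activation, 6 were higher and 2 lower (42.1% called, against 33.9% of all genes). Mecr, of mitochondrial fatty acid synthesis, fell by 1.23 on the log2 scale (adjusted p 0.000694), and Mlx, the partner of the carbohydrate response factor, fell by 0.77 (0.00136). Elovl7, an elongase, rose by 1.06 (0.00786) and Acsl1, which activates fatty acids, by 0.83 (0.00555). Of 13 further glycerolipid and lipid droplet genes, 1 was higher and 3 lower (30.8% called). Plin2, the droplet coat protein of cells other than adipocytes, measured 35.9, 35.0 and 38.6 in the control libraries and 79.8, 81.2 and 128 in the Ptf1a cKO libraries (log2 fold change 1.29 ± 0.20 (SE), adjusted p = 0.00159). Mgll, the monoglyceride lipase, fell by 1.16 (0.00104), Lpin3 by 0.56 (0.0199) and Agpat5 by 0.44 (0.0372). The calls of Lpin3 and Agpat5 each held in only 2 of the 6 fits with a library left out.

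Fatty acid oxidation had 9 of 15 genes past the threshold (60.0%, against 33.9% of all genes), 8 higher and 1 lower. The median of the log2 fold changes of the 15 was 0.49 against 0.04 in the whole table, and 13 of the 15 lay above the median gene, or 12 with libraries set to the same total. Slc25a20, the carnitine carrier, rose by 1.51 (adjusted p 0.00367), Acadl, an acyl-CoA dehydrogenase, by 1.20 (0.000427) and Acaa2, the thiolase of the last step, by 0.80 (0.0032). Ppara, the receptor known to activate oxidation genes, was the gene that fell, with 132, 133 and 126 in the control libraries and 36.7, 52.6 and 45.1 in the Ptf1a cKO libraries (log2 fold change -1.48 ± 0.15 (SE), adjusted p = 0.000246).

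**Figure D5:**
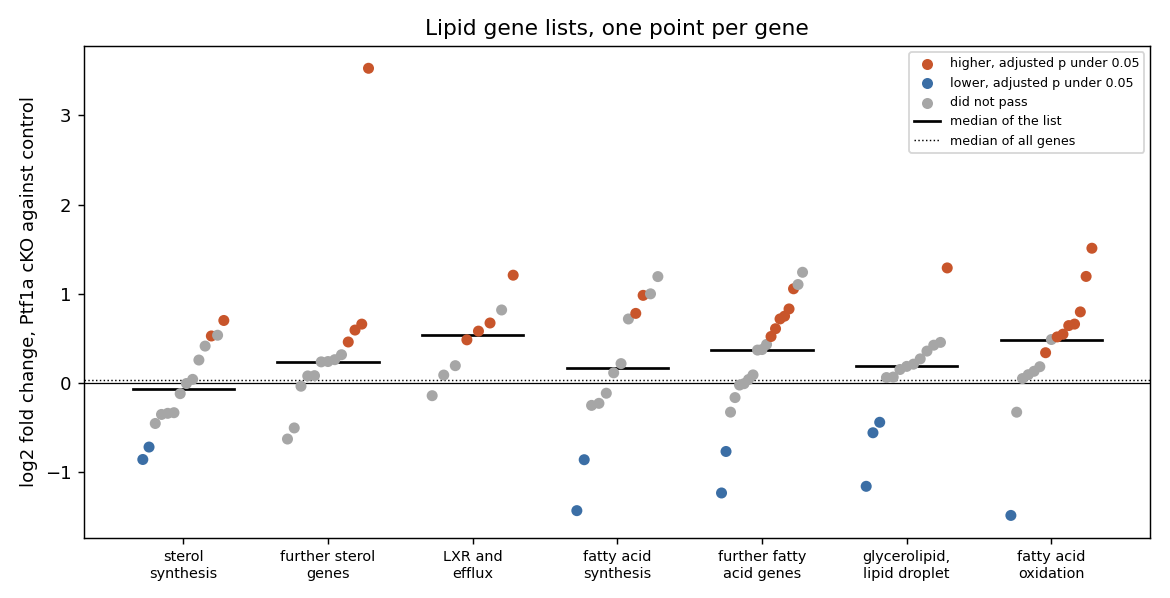
Log2 fold change of each gene (y axis) in 7 lists of lipid genes, with list medians as bars and the median of all genes (0.04) as a dotted line. Soat1 at 3.53 stands above all other points, and the bars of sterol synthesis (-0.06) and fatty acid oxidation (0.49) lie below and above the dotted line, in the deposited scaling and relative to the median gene in the others.

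Markers of other cell types moved with genotype in the same libraries. Of all genes 17.1% were called higher and 16.8% lower. Of leukocyte markers 7 of 8 were higher, with sums of 442 to 721 in control and 1167 to 2445 in Ptf1a cKO libraries, and of fibroblast and stellate markers 9 of 10, with sums of 3058 to 3475 and 5991 to 10563. Ductal markers were higher in 5 of 9 and gastric markers in 6 of 8, and of 7 endothelial markers none was called, with sums of 883 to 1065 and 867 to 1032. Of 9 listed hepatocyte markers Alb and Ttr were in the table and both were higher. Acinar secretory genes, the defining genes of the tissue, were lower in 13 of 18 and higher in 1 in the deposited scaling, with sums of 12737900 to 15946800 in control and 1828110 to 5035440 in Ptf1a cKO libraries. The part of these cell types in the changes of lipid genes was not tested.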

How the data were processed

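Total RNA of 6 whole pancreata, 3 per genotype and 1 per mouse, was sequenced as single-end reads from TruSeq libraries. Per the labels, the submitters' processing notes name TopHat2 2.0.4, Bowtie 0.12.7.0, SAMtools 0.1.18.0, HTSeq 0.6.0 and build mm9. The authors tested read counts with edgeR and TMM normalization. The table the authors deposited holds 1 signal per gene and library, a normalized read count with decimals. Whole reads per gene could not be recovered, so neither count tests nor counting intervals were used. The authors give the number of uniquely aligned reads of each library, which was similar in both groups. Non-gene entries, 75.7% to 82.6% of a library, were left out. A total computed from the table is therefore not a depth.

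Values were divided by 13.6 for all libraries, and log2(value + 0.25) was taken, which equals a pseudocount of 3.41 normalized counts and understates changes of low genes. The 10245 genes were tested with limma 3.58.1 (lmFit, eBayes with trend) in R 4.3.3, two-sided, with Benjamini-Hochberg adjustment over all genes. A minimum mean of 0.25 removed no gene. The fit was tested on simulated data. Python 3.11.15 and scipy 1.17.1 were used for summaries and exact permutation tests. Exon lengths came from the GENCODE M21 annotation of GRCm38 and promoters from RefSeq, by symbol. The text names every member in the table and, of each further list, up to 4 genes past the threshold with the largest changes. Of the LXR list the 2 with the largest changes are named. A gene of the oxidation list is not reported here and was left out of its counts. The members and lists were chosen with earlier results of these data known. Same-numbered mice were not treated as pairs: their deviations correlated at 0.04, 0.13 and 0.14. Alternatives were other pseudocounts, filters, scalings, variance models, a replicate block, sex, and each library left out.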

Additional observations from a re-analysis of the deposited data

How the results depend on the processing

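Other pseudocounts, filters on low values, the variance model without trend and the robust one changed no call of a member. With libraries set to the same total, 32 members were called higher and 0 lower, among them 14 sterol genes and 11 fatty acid genes higher and 0 of either lower, and over all genes 9590 were higher and 129 lower (98.7% of calls higher, against 50.4% in the deposited scaling). The log2 fold change then turned positive, to 0.051 (Acacb), 0.32 (Insig1), 0.60 (Sqle), 0.63 (Fads1), 0.75 (Sc5d), 0.75 (Gpam), 0.89 (Srebf1), 0.94 (Scap), 0.99 (Dhcr7), 1.03 (Fdps), 1.08 (Lss), 1.13 (Fdft1), 1.19 (Srebf2), 1.22 (Elovl1), 1.23 (Fads2), 1.30 (Cyp51), 1.38 (Acly), 1.40 (Dgat2) and 1.45 (Ebp). It raises every gene of the Ptf1a cKO libraries, whose totals are lower. With the same total outside acinar secretory genes, 10 members were higher and 4 lower, 5 sterol genes were higher and 1 lower, 4 fatty acid genes were higher, and over all genes 5213 were higher and 684 lower (88.4% higher), and values turned positive to 0.055 (Fdps), 0.056 (Lss), 0.080 (Fdft1), 0.13 (Srebf2), 0.17 (Elovl1), 0.19 (Fads2), 0.29 (Cyp51), 0.31 (Acly), 0.35 (Dgat2) and 0.41 (Ebp). The same 75th percentile turned Ebp to 0.039. The median of ratios and sex as a covariate each left 1 sterol gene called higher instead of 2, and the median of ratios 3 called lower instead of 2. Under the 4 other scalings, added after the data were seen, the differences taken within libraries kept their direction. Leaving out each library in turn gave 0 to 6 members higher and 7 to 10 lower, 0 to 1 sterol genes higher and 2 to 3 lower, and 0 to 5 fatty acid genes higher and 2 to 3 lower. Without a library the log2 fold change changed sign for members that did not pass with all libraries, with ranges of -0.014 to 0.10 for Mvk, -0.45 to 0.10 for Cyp51, -0.095 to 0.087 for Ebp, -0.027 to 0.14 for Insig2, -0.36 to 0.076 for Acly, -0.34 to 0.42 for Acaca, -0.097 to 0.52 for Elovl5, -0.14 to 2.04 for Elovl6, -0.18 to 0.26 for Lpin1 and -0.31 to 0.31 for Dgat2. Without replicate 3 of both groups, chosen after the data were seen, 1 member was higher, 0 sterol genes and 1 fatty acid gene among them, 1108 of all genes were higher, and Ebp (0.019), Acaca (-0.087) and Lpin1 (-0.012) changed sign. The causes were not tested.

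The labels number the mice 1 to 3 in each group without saying that a number is shared. The replicate block gave 13 called members instead of 12, with 1 sterol gene and 4 fatty acid genes higher. Replicates 2 and 3 correlated best with their own number and Ptf1a cKO replicate 1 with control replicate 2 (0.08), a hint from the data and not from the design. The 3 mice per group limit the precision, and since whole reads per gene could not be recovered no value carries a counting error.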

Other observations

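Me1, which supplies NADPH for fatty acid synthesis, and Thrsp, a nuclear protein of lipogenic tissues, are no members and were singled out after their values were seen. Me1 measured 20.8, 10.9 and 34.2 normalized counts in the control libraries and 37.7, 19.2 and 135 in the Ptf1a cKO libraries, and Thrsp 28.9, 8.84 and 62.6 against 50.6, 22.1 and 247. Neither passed the threshold (limma, adjusted p 0.188 and 0.262). Both had their highest value in replicate 3 and their lowest in replicate 2 of each group, the order also seen for Scd1 and Fasn.

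Acat2 and Elovl7 had equal values in all 3 control libraries (22.0, 19.9 and 23.0 normalized counts) but not in the Ptf1a cKO libraries, where Elovl7 measured 58.4, 38.6 and 50.6. Both are low in this table, and the cause was not tested.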
